A study of Bombus terrestris with 70 samples.

Results

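The brains of control queens of Bombus terrestris, the buff-tailed bumble bee, were compared between an early and a late point in the life of their cohort. The late libraries, taken once 60% of a cohort had died (TP2), carry replicate numbers 1, 2, 3, 4 and 6. The early libraries, taken at 10% deaths (TP1), carry replicate numbers 1 to 6. These 11 libraries are 11 of the 68 with a column in the deposited tables, which also cover the fat body, the ovary and a second treatment, and of the 70 samples in the labels. Control queens had their eggs taken away and given back, so they bore the handling that the other treatment, egg removal (R), also brought. In egg removal the eggs were not returned. Each library is the brain of a single queen, made with a stranded mRNA kit and run on 2 lanes. The age of a queen is known only as this stage of her cohort, not in days, so queens at TP2 are survivors of the deaths in between. All 10435 genes in the brain table were considered, and the 10388 with a mean of at least 1 normalized read in at least 1 of the 4 brain groups were tested.

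A bumble bee queen founds an annual colony and lays most of its eggs, and her brain both receives and directs the hormones tied to egg laying. Juvenile hormone, made by glands attached to the brain, acts on its target cells through a receptor that switches on Kr-h1, a zinc finger transcription factor. Insect tissues under attack make antimicrobial peptides such as defensin. In whole brains a lower value can mean fewer cells of a type or less RNA per cell, and these cannot be told apart.

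Estimated depth ran from 24.1 to 56 M reads over the 11 control brain libraries. LOC100644055 took the largest share of the normalized total in TP1 replicates 1 and 5 (5.79% and 13.6%), and in no TP2 library, where its share was at most 0.312%. Its fitted log2 change of -2.14 (SE 2.35) did not pass the test (adjusted p = 0.696). The normalized total was 39.6 ± 6.89 M (SD, n = 6) at TP1 and 36.6 ± 0.805 M (SD, n = 5) at TP2 (exact two-sided permutation test, p = 0.463). None of the neuron, glia, retina, muscle, haemocyte, gland or other marker genes listed for this work had a symbol in the table, so the label of the tissue could not be checked against its defining markers. As a description instead, 204 genes with over 10 times the share in fat body than in brain and ovary summed to 0.119 to 0.721 M normalized reads in these brains, without a detected difference between times (exact two-sided permutation test, p = 0.323). No product names are available for identifiers that start with LOC, so no role is given for them. Genes with a near-identical copy could share reads and could not be singled out.

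Between TP1 and TP2, 267 of 10388 genes changed at an adjusted p under 0.05 (limma, Benjamini-Hochberg adjustment over all genes tested), which is 2.57% of the genes tested. Of these, 181 (1.74%) were higher in old control queens and 86 (0.828%) were lower. The changes were mostly modest. The median fold was 1.55 among the higher genes and 1.3 among the lower ones, and 46 genes (0.443% of those tested) had an absolute log2 change of at least 1, 37 of them higher and 9 lower. All log2 changes are of the value plus 1, which understates the change of genes with low values. Over all genes tested the median log2 change was -0.01 and the median absolute change 0.14. The excess of higher genes depended on how libraries were scaled and weighted. Scaling to a common upper quartile gave 191 higher and 51 lower genes, scaling to a common total gave 27 and 1, and weights per library gave 563 and 593. Without the libraries led by LOC100644055, 275 genes were called (173 higher, 102 lower), 138 of them among the 267, and a common total in those libraries gave 135 higher and 190 lower.

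**Figure D1:**
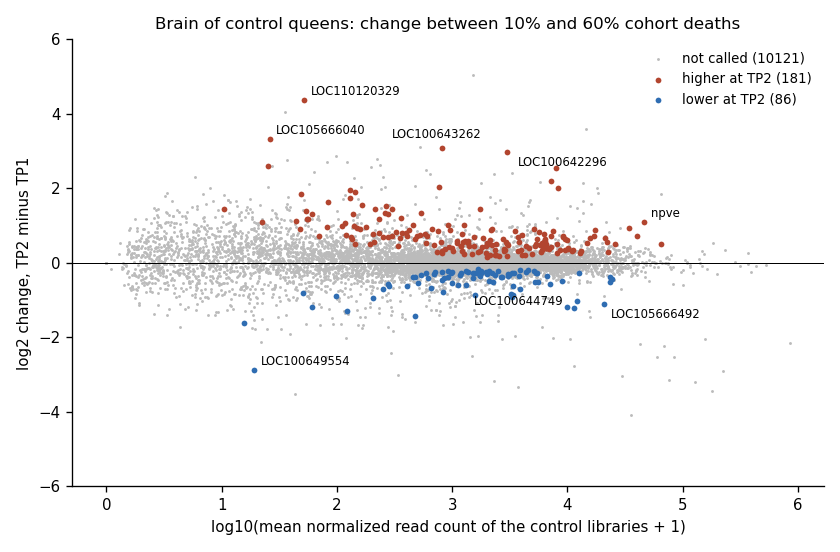
Each point is a gene, with its log2 change (TP2 minus TP1) in control brains on the y axis and the log10 of its mean normalized read count, plus 1, on the x axis. The 181 genes called higher (red) and 86 called lower (blue) lie at all levels, and called genes at low levels have the larger changes.

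Called genes were found across the whole range of expression. Among the 2078 genes with the lowest mean levels 35 were called (1.68%), with a median absolute log2 change of 1.17. Among the 2078 with the highest levels 78 were called (3.75%), with a median of 0.50. Both medians are of called genes only, so they depend on which changes could pass the test. The median change of all genes at each level was not computed. The values just inside the threshold were adjusted p = 0.0496 for LOC100647423, LOC100651713 and LOC100651482, and just outside it 0.0503 for LOC100649559 and LOC100644229. In 111 of the 181 higher genes every TP2 value exceeded every TP1 value, and in 45 of the 86 lower genes every TP2 value lay below. Over all genes tested, 304 (2.93%) separated, 188 (1.81%) upward and 116 (1.12%) downward. Of the called genes 251 (94%) are protein coding in the RefSeq table, beside 92.4% of all genes tested.

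The 3 genes called in both treatments all rose with age, and the smallest p belonged to LOC100642296. Its normalized read counts ran from 457 to 1019 (median 626) in the 6 TP1 libraries. At TP2 they were 5088, 3068, 7085, 6923 and 4577. The groups stood far apart and the fit gave a log2 change of 2.97 (SE 0.31, adjusted p = 6.88e-05). In egg removal queens the same gene ran from 128 to 433 (median 238) at TP1 and read 826, 1688, 699, 1039.6 and 1341 at TP2, a log2 change of 2.27 (SE 0.31, adjusted p = 0.00288). LOC100648224 was 2039 to 4578 (median 3452) at TP1 and 13405, 14472, 11522, 9612 and 16482 at TP2, with no overlap. Its log2 change was 2.00 (SE 0.28, adjusted p = 0.000957), beside 1.87 in egg removal. Egg removal brains lay below the control brains of the same time, with 306 to 986 (median 861) at TP1 and 2942, 2219.8, 1787, 2001 and 4073 at TP2. LOC100648333 was 474 to 798 (median 594) at TP1 and 1051, 919.9, 1485, 1551 and 1174 at TP2. It rose by 1.01 on the log2 scale (SE 0.16, adjusted p = 0.00178) in control and by 1.13 in egg removal. LOC100648450, its neighbour in the RefSeq gene order, rose too. It read 107 to 192 (median 132) at TP1 and 393, 304, 376, 552 and 347 at TP2, a log2 change of 1.52 (SE 0.24, adjusted p = 0.00178), and its change of 0.76 in egg removal did not pass the test.

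**Figure D2:**
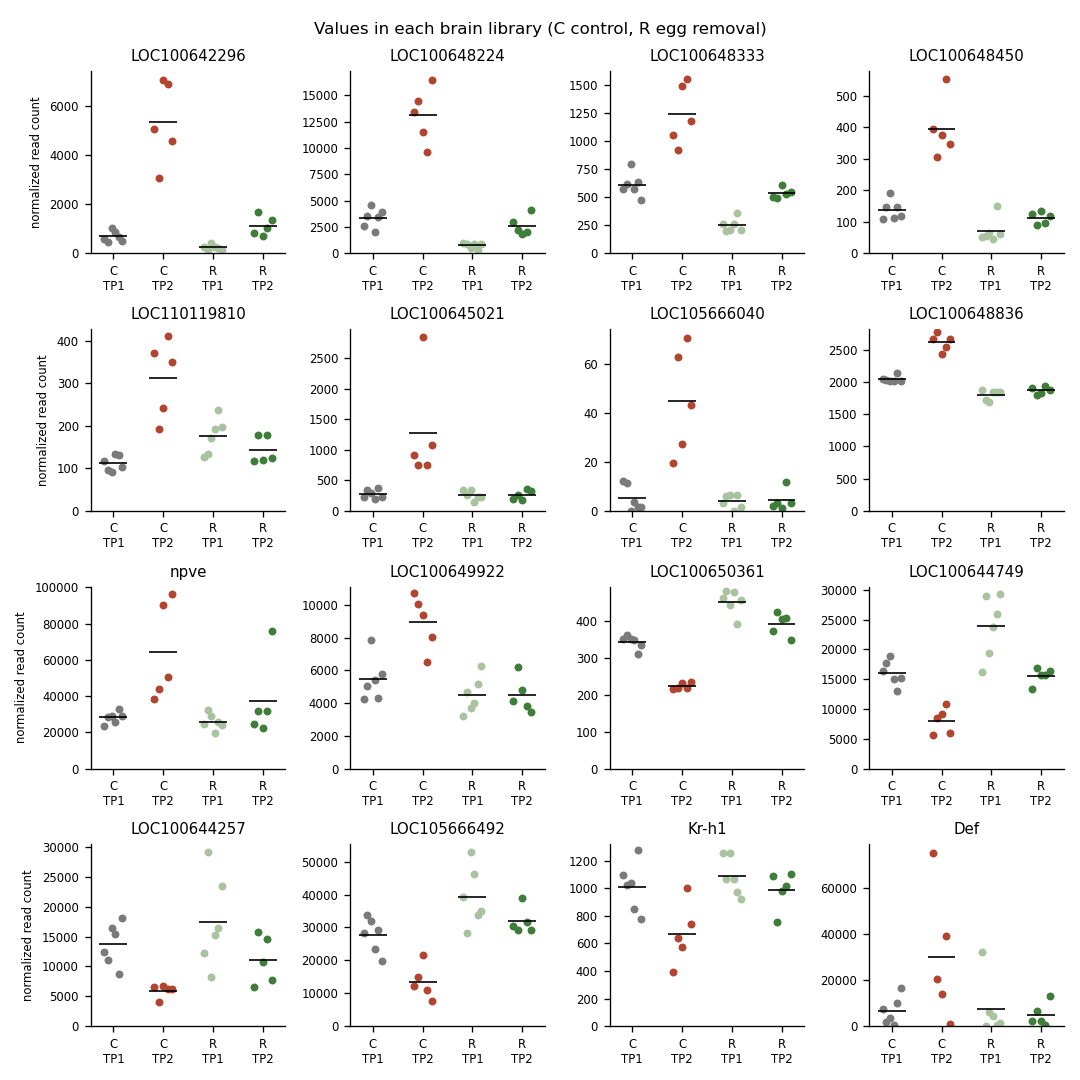
Normalized read counts of 16 genes in each brain library, 1 point per queen and a bar for the group mean, each panel with its own y axis from 0 (C control, R egg removal). Old and young control queens separate fully in LOC100642296, LOC100648224, LOC100648333 and LOC100648836, whereas Kr-h1 and Def overlap.

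Most of the other higher genes with small p changed by a log2 value of less than 1 but varied little between queens. They were chosen by small p, so the low spread beside a small change is partly fixed by that choice. LOC100648836 ran from 2013 to 2137 (median 2028) at TP1 and 2671, 2771, 2433, 2550.3 and 2665 at TP2. Its groups did not overlap, and the change was only 0.36 on the log2 scale (SE 0.04, adjusted p = 0.000186). LOC100651746 read 1602 to 1769 (median 1656) at TP1 and 2809, 2226, 2236, 2491 and 2252 at TP2, a log2 change of 0.51 (SE 0.07, adjusted p = 0.000357). LOC100648369 read 776 to 937 (median 856) at TP1 and 1148, 1139.7, 1206, 1058 and 1146 at TP2, a log2 change of 0.41 (SE 0.06, adjusted p = 0.00056). Neither gene overlapped between the groups. LOC100650685 read 3616 to 4477 (median 4017) at TP1 and 6909.9, 7789, 5353, 6492 and 10170.4 at TP2, a log2 change of 0.84 (SE 0.11, adjusted p = 0.000395). Old queens differed more among themselves here than young ones did. LOC100644848 read 6736 to 8756 (median 7806) at TP1 and 13359, 12486, 9169.7, 11802 and 12675 at TP2, a log2 change of 0.61 (SE 0.09, adjusted p = 0.00137). LOC100651824 read 3722 to 5024 (median 4102) at TP1 and 6413, 6685, 5631, 6888 and 7243 at TP2, a log2 change of 0.63 (SE 0.09, adjusted p = 0.00137). Both were abundant, and neither overlapped. LOC100643805 and LOC100645337 rose by 0.56 and 0.55 on the log2 scale (adjusted p = 0.00178 for each). The egg removal changes of these 8 genes lay between 0.03 and 0.33, all positive and none past the test. Each of the 8 stayed called whichever control library was left out, but none did when libraries were scaled to a common total (28 genes called in all).

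Some of the largest rises were seen in genes with low values in young brains. LOC110120329 had the largest change of all called genes. At TP1 it read 5.88, 0, 1.64, 14.3, 4.77 and 0, and at TP2 44.4, 36, 29.7, 183 and 189. Every old queen was above every young one, a log2 change of 4.38 (SE 0.98, adjusted p = 0.018). The call was lost without TP1 replicate 2, TP2 replicate 4 or TP2 replicate 6 (adjusted p up to 0.0551). LOC105666040 read 12.2, 11.5, 0, 3.73, 1.56 and 1.47 at TP1 and 19.8, 62.9, 27.3, 70.9 and 43.5 at TP2. Here too the groups did not overlap, with a log2 change of 3.32 (SE 0.66, adjusted p = 0.0093), and the call held without any 1 control library. LOC100643262 ran from 36.8 to 924 (median 163) at TP1, where replicate 5 stood above the rest, and read 1005, 1722, 1100.3, 1099 and 1862 at TP2. It rose by 3.09 on the log2 scale (SE 0.60, adjusted p = 0.0093). LOC100647803 read 1.61 to 5.14 (median 3.43) at TP1 and 21.4, 16.7, 156, 4.44 and 27 at TP2, so the groups overlapped. Its change of 2.61 (SE 0.69, adjusted p = 0.0469) lost its call in 10 of the 11 fits that left out a control library, TP2 replicate 4 being the exception (adjusted p up to 0.0859).

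Of the 181 genes higher in old control brains, 24 had a negative log2 change in egg removal, none past the test there. LOC110119810 read 92.6 to 133 (median 110.3) at TP1 and 371, 194, 242, 413 and 351 at TP2 in control, a log2 change of 1.43 (SE 0.20, adjusted p = 0.000957). In egg removal it read 126 to 237 (median 183) and then 117, 178, 119, 178 and 124, a log2 change of -0.29. The difference between the treatments in its change, -1.73 (SE 0.29), had the smallest p of all genes and did not pass the test (adjusted p = 0.0709). LOC100645021 was 198 to 371 (median 258) at TP1 and 919.6, 751, 2841, 749 and 1073 at TP2 in control, with replicate 3 far above the other old queens. It changed by 2.02 (SE 0.30, adjusted p = 0.00141), and by 0.08 in egg removal. The difference between the treatments in its change, -1.94 (SE 0.43), did not pass the test either (adjusted p = 0.277). LOC100648414 changed by 0.77 in control (adjusted p = 0.00874) and by -0.28 in egg removal. LOC100650021 changed by 1.11 (adjusted p = 0.0406) and -0.36, and lost its control call in 8 of the 11 fits without a control library (adjusted p up to 0.0997). Neither difference passed the test between treatments.

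Among the 86 genes that fell, LOC100650361 had the smallest p. It read 311 to 364 (median 350.2) at TP1 and 215, 218, 232, 218 and 234 at TP2, a log2 change of -0.62 (SE 0.07, adjusted p = 0.000186), and the groups did not overlap. LOC100644749 read 13056 to 18966 (median 15739) at TP1 and 5707, 8545, 9119, 10868 and 5955 at TP2. Every old queen was below every young one, and the log2 change was -1.03 (SE 0.17, adjusted p = 0.00204). LOC100648980 read 1734 to 2338 (median 2048) at TP1 and 1196, 1082, 1118, 1645 and 710.2 at TP2, a log2 change of -0.86 (adjusted p = 0.00204). LOC100644884 read 336 to 774 (median 761) at TP1, where replicate 5 was far below the others, and 217, 325, 358, 180.3 and 202 at TP2. Its log2 change was -1.43 (SE 0.28, adjusted p = 0.00929), and replicate 5 overlapped the old queens. The 5 other lower genes with the smallest p, LOC105666912, LOC100644623, LOC100650563, LOC100647741 and LOC100642630, changed by -0.49 to -0.27 (adjusted p = 0.00178 to 0.00596). LOC100650563, for example, read 2255 to 2520.2 (median 2409) at TP1 and 2038, 1943, 2058, 1977 and 2006 at TP2. All 9 kept their calls without any 1 control library, and none did with libraries scaled to a common total.

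Of the 5 largest falls among called genes with a group mean of at least 10, that of LOC100644884 held in all 11 fits that left out 1 control library, and the other 4 lost their calls in some of them. LOC100649554 read 55.8, 43.2, 33.8, 1.86, 34.4 and 24.2 at TP1 and 0, 6.88, 3.89, 9.97 and 0 at TP2, so young replicate 4 lay within the old range. Its change of -2.88 (SE 0.76, adjusted p = 0.0456) lost its call in 7 of the 11 fits without a control library (adjusted p up to 0.114). LOC105665972 changed by -1.63 (adjusted p = 0.0301) and LOC100643594 by -1.28 (adjusted p = 0.0306). They lost their calls in 5 and 6 of those 11 fits (adjusted p up to 0.0786 and 0.0832). LOC100646373 fell from 15669.9 ± 5850.2 (SD, n = 6) to 6946 ± 3341 (SD, n = 5), a log2 change of -1.21 (adjusted p = 0.0431), a call that was lost in 9 of the 11 fits (adjusted p up to 0.111). The 86 lower genes included 9 with a positive change in egg removal, none past the test there, and the 3 largest of these changes were in LOC100644903, LOC105667175 and LOC100648759. Of these, LOC100644903 was abundant, with 26354 to 32327 (median 27596) at TP1 and 20482, 21947, 22054, 20347 and 19003 at TP2, a log2 change of -0.44 (SE 0.10, adjusted p = 0.0175). Its call was lost without TP2 replicate 6 (adjusted p = 0.0531), and those of LOC105667175 and LOC100648759 in 6 and 8 of the 11 fits (adjusted p up to 0.0953 and 0.113).

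Among called genes the largest gain in mean normalized reads was that of npve, and 4 genes that were not called gained more. It is a gene among the 9 with a symbol of their own and the only member of those 9 that was called. Young brains held 23212 to 32767 (median 28914) normalized reads, and old brains 38428, 44140.1, 90402, 50603 and 96532. The old queens were all above the young ones, though replicates 3 and 6 stood well above the rest of their group. The mean went from 28157 ± 3261 (SD, n = 6) to 64021 ± 27309.5 (SD, n = 5), a log2 change of 1.09 (SE 0.27, adjusted p = 0.032). The call was lost in 5 of the 11 fits that left out a control library, those without TP1 replicate 1, 2, 4 or 6 or TP2 replicate 6 (adjusted p up to 0.0826, log2 change 0.91 to 1.25). In egg removal the change was 0.40 (adjusted p not under 0.05). On the same side of npve in the RefSeq gene order the 3 nearest tested genes are LOC100650033, LOC100649922 and LOC100650274, whose synonyms there are LPQD, SPVE and GPTE. LOC100649922 read 4233 to 7847 (median 5233) at TP1 and 10742, 10032, 9407, 6489.7 and 8051 at TP2, a log2 change of 0.73 (SE 0.19, adjusted p = 0.0416), with overlap. LOC100650274 changed by -0.33 (adjusted p = 0.212) and LOC100650033 by 0.72 (adjusted p = 0.229), and neither passed the test.

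Other abundant genes moved by large amounts as well, and these were picked out after their values were seen. LOC100646005 rose from 53502 ± 5874 (SD, n = 6) to 76183 ± 15932 (SD, n = 5), a log2 change of 0.49 (SE 0.12, adjusted p = 0.027). LOC100650108 read 18748 to 38682 (median 20493) at TP1 and 48972, 45703, 31425, 51125 and 48100.4 at TP2, where replicate 3 was below the highest young queen. Its log2 change was 0.94 (SE 0.20, adjusted p = 0.012), against 0.11 in egg removal. LOC100649840 read 1056 to 3009 (median 1800.1) at TP1 and 3788, 9279, 22581, 5649 and 28144 at TP2, a log2 change of 2.55 (SE 0.57, adjusted p = 0.0197). Its values at TP2 spanned a wide range, and replicates 3 and 6 were highest, as they were for npve. Among called genes the largest loss in mean was that of LOC105666492, and 29 genes that were not called, LOC100644055 among them, lost more. LOC105666492 read 19899.6 to 33757 (median 28803) at TP1 and 12117, 14943, 21774, 10976 and 7521 at TP2. Its log2 change was -1.11 (SE 0.21, adjusted p = 0.00733), beside -0.28 in egg removal, and TP2 replicate 3 overlapped the young queens. Leave-one-out fits kept LOC100650108 and LOC105666492 called in 11 and 11 of 11, and LOC100646005 and LOC100649840 in 8 and 10.

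Of the 20 lists of pathway and cell type genes drawn up for this work, 17 had no gene with a symbol in the table and 3 had 1 gene each. Kr-h1, the juvenile hormone target, read 776 to 1275 (median 1035) at TP1 and 395, 638, 575, 1000.3 and 742 at TP2. TP2 replicate 4 lay among the young queens, and the log2 change of -0.64 (SE 0.17) lay just outside the threshold (adjusted p = 0.0529). It passed without TP1 replicate 6 or TP2 replicate 4, and the adjusted p ranged from 0.0143 to 0.128 over the fits that left out a library. It also passed with libraries scaled to a common upper quartile, with the normalized total as covariate and with estimated depth as covariate (adjusted p = 0.0458, 0.0314 and 0.00905), and in none of the other settings tried. Def, the antimicrobial peptide defensin-1, read 631 to 16558 (median 5515) at TP1 and 74961, 20470.2, 13841, 38923 and 935 at TP2. The groups overlapped widely, and the change of 1.88 (SE 1.29) did not pass (adjusted p = 0.49). The value for fem, a splicing regulator of sex determination in the honey bee, was 1476 to 2976 (median 2276) at TP1 and 2175, 2930.5, 1278, 2607 and 2619 at TP2. Its log2 change of 0.03 (adjusted p = 0.961) was well within its SE of 0.22. VSP, a venom serine protease, changed by 0.61 (SE 0.39, adjusted p = 0.446).

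The called genes with a brain-rich pattern included LOC100644257 and LOC100644632, which fell, and LOC100645024, which rose. Shares of the table total were compared between the 3 tissues in control queens, which gives a description since each table was normalized alone. Of the 10209 tested genes in all 3 tables, 41% had their largest share in the brain, against 41.4% of the higher genes and 58.3% of the 84 lower genes that could be placed. A share in the brain over 10 times that in both other tissues was found for 537 genes (5.26%), of which 9 (1.68%) were called higher and 8 (1.49%) lower, with a median log2 change of -0.10 over the 537. Over all genes tested 1.74% were higher and 0.828% lower, so the share of higher genes was near the background. Among the lower ones, LOC100644257 had a median share of 180.2 parts per 1000000 in brain libraries, beside 0.17 in fat body and 0.4 in ovary. It read 8773 to 18147 (median 13907) at TP1 and 6511, 3985, 6762, 6184 and 6173 at TP2, with no overlap, a log2 change of -1.19 (SE 0.29, adjusted p = 0.0296). LOC100644632, a more abundant gene, had 642 parts per 1000000 in brain libraries, beside 11.3 in fat body and 21.1 in ovary. It read 24772 to 29586 (median 27478) at TP1 and 17307, 21256, 17691, 23996 and 16929 at TP2, again without overlap, a log2 change of -0.50 (SE 0.10, adjusted p = 0.00997). LOC100651550 fell by 0.93 on the log2 scale (adjusted p = 0.0321), and LOC100644749, described above, belongs to the same group. Among the brain-rich genes that rose, LOC100645024 read 1067 to 7596 (median 2457) at TP1 and 17007, 11264, 13662, 7764 and 7727 at TP2. TP1 replicate 5 came close to the lowest old queens, and the log2 change was 2.21 (SE 0.44, adjusted p = 0.0105). LOC110119952 read 595 to 1378 (median 929.7) at TP1 and 2633, 1366, 3887, 2602 and 2392 at TP2, with overlap, a log2 change of 1.44 (SE 0.29, adjusted p = 0.00997). LOC100642500, the most abundant of the 9, overlapped between the groups, with 22273 to 47759.9 (median 30458) and then 52831, 50978, 49809.6, 43877 and 51086, a log2 change of 0.71 (SE 0.18, adjusted p = 0.0406). Among fits that left out 1 control library, LOC100644257 was called in 5 of 11, LOC100644632 in 11, LOC100651550 in 3, LOC100645024 in 11, LOC110119952 in 11, LOC100642500 in 2 and LOC100649922 in 3. Of the 202 tested fat-body-rich genes 3 (1.49%) were called higher and 1 (0.495%) lower, with a median log2 change of -0.24 over the 202. Of the 408 ovary-rich genes 4 (0.98%) were called higher and none lower, with a median of 0.05. Some genes described above for their large changes belong to these groups. LOC100643594, the lower fat-body-rich gene, had 3.13 parts per 1000000 in brain libraries and 182 in fat body. LOC100647803 was among the higher fat-body-rich genes, and LOC105666040 among the ovary-rich ones (0.33 in brain, 11.7 in ovary). LOC100646373 had 320 in brain, 3262 in fat body and 550.5 in ovary, so it is in none of these groups. Whether fat body or ovary tissue in the brain samples had a part in these changes was not tested.

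**Figure D3:**
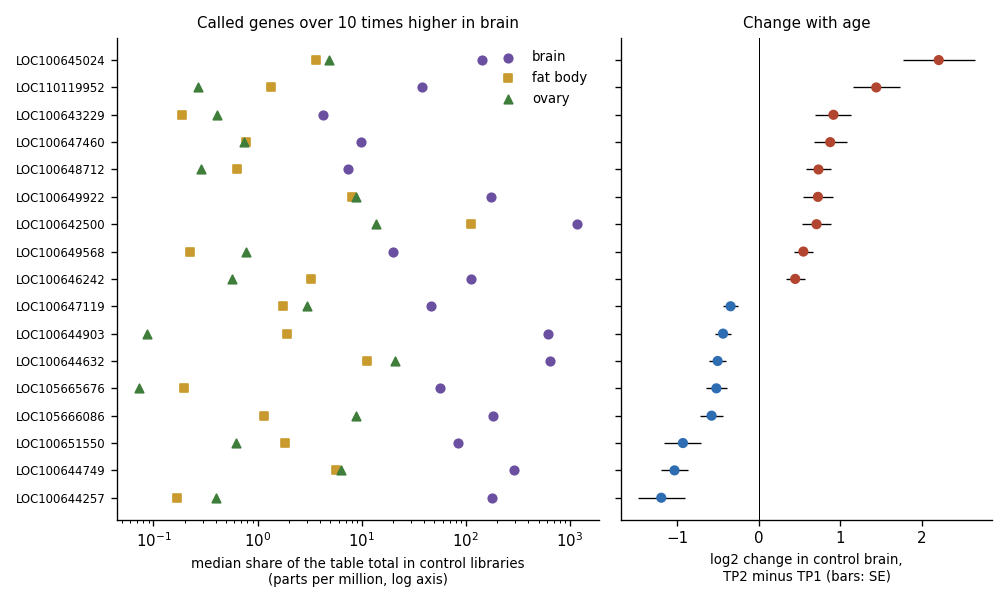
The 17 called genes with over 10 times the share in brain than in fat body and ovary. Left, median share in control libraries of each tissue in units of 1 part in 1000000 on a log axis; right, log2 change in control brain with its SE as bars, with 9 genes higher and 8 lower at TP2.

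Egg removal queens gave the same comparison in 11 other libraries (6 at TP1, 5 at TP2), so the direction seen in control could be set beside an independent set of queens. Far fewer genes passed there: 5 of 10388 (0.0481%), all higher, namely LOC100642296, LOC100648224, LOC100648333, LOC100651915 and LOC105666762. At an unadjusted p under 0.05 the numbers were 1819 genes (17.5%) in control and 607 (5.84%) in egg removal. Of the 181 genes higher in old control brains, 157 (86.7%) were also higher in old egg removal brains, and of the 86 lower genes 77 (89.5%) were also lower. Over all genes tested the 2 changes had the same sign in 65.3%. The sizes differed, with a median log2 change of 0.63 in control and 0.17 in egg removal for the higher genes, and -0.38 and -0.11 for the lower ones. The genes were chosen by the control change, so a smaller change in the other queens is partly fixed by that choice. A test of the difference between treatments called none of the 10388 genes with limma, with 446 genes (4.29%) at an unadjusted p under 0.05.

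**Figure D4:**
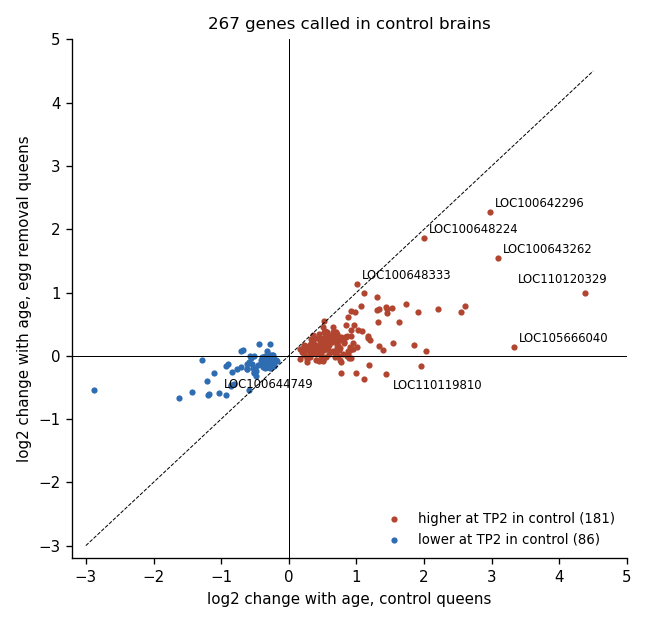
Log2 change with age (TP2 minus TP1) of the 267 genes called in control brains, in control queens (x axis) and in egg removal queens (y axis), with the line of equal change dashed. Most points lie on the same side of 0 on both axes, and all but 2 are closer to 0 in egg removal.

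The levels of these genes in every brain library are given as a description, with no test. For each library the median log2 difference to the control TP1 mean was taken over the 181 higher genes. Old control queens lay between 0.49 and 0.69, a range that the choice of genes fixes. Young egg removal queens lay between -0.27 and -0.23, below all 6 young control queens (-0.06 to 0.07). Old egg removal queens lay between -0.11 and -0.01, overlapping the young control queens. Over the 86 lower genes the order was the opposite, with -0.42 to -0.34 in old control queens, 0.11 to 0.22 in young egg removal queens and -0.02 to 0.11 in old egg removal queens. LOC100644055 led 3 of 6 young and 4 of 5 old egg removal libraries, and its part in these levels was not tested.

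**Figure D5:**
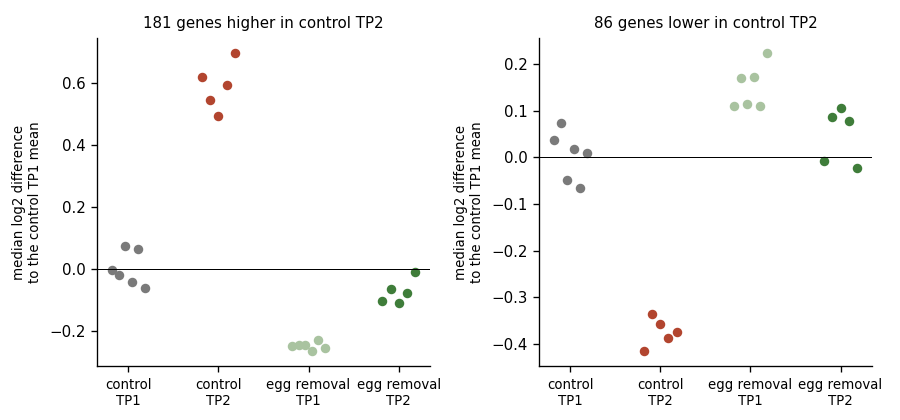
Median log2 difference of each brain library to the control TP1 mean, over the 181 genes higher (left) and the 86 lower (right) in old control queens, 1 point per queen. Young egg removal queens lie on the far side of young control queens from old control queens in both panels.

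Ageing in the other tissues of control queens was set beside that of the brain, each tissue tested within its own table. Whether the tissues came from the same queens is not given in the sources used here. In the fat body, where 129 of 10383 genes (1.24%; 0.472% higher and 0.77% lower) were called, 132 of the 181 higher brain genes and 63 of the 86 lower ones had the same sign. The share of all genes with the same sign in brain and fat body was not computed, so these counts have no background beside them. Of the brain genes 6 were also called higher and 4 also called lower there, and none was called in the opposite direction. In the ovary 6424 of 10401 genes (61.8%) were called (31.1% higher and 30.7% lower), so most genes were called there in either direction. There 115 of the 181 higher brain genes were called in the same direction and 21 in the opposite one, and of the 84 lower genes tested 25 and 21. In all, 7 of the genes called in brain were called the same way in all 3 tissues. The share over all genes was not computed, and most genes were called in the ovary. Old control ovary replicates 1 and 4 had a median correlation with the other ovary libraries of 0.784 and 0.76. The other old control ovaries had 0.892 to 0.942. LOC105666040 rose by 3.32 (brain), 3.85 (fat body) and 5.12 (ovary) on the log2 scale. Its mean normalized reads were 1.67 ± 3.47 and 30.9 ± 20.4 (SD, n = 6 and 4) in young and old fat body, and 80.3 ± 63.3 and 2689 ± 1688 (SD, n = 6 and 6) in young and old ovary. LOC100643262 rose by 3.09, 4.08 and 5.35 in brain, fat body and ovary. LOC100647974, LOC100643137 and LOC105667088 rose by 0.76, 0.30 and 0.39 in the brain. LOC100650563 and LOC100650358 fell by 0.27 and 0.30 in the brain, and by 0.67 and 0.92 in the fat body.

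Of 252 called genes placed on a chromosome of the RefSeq assembly, 8 pairs were direct neighbours. Of the 503 neighbours of called genes 16 (3.18%) were called, beside 2.6% of all 9686 placed genes, so the share was near the background. In 7 pairs both genes were higher, and in the other pair LOC100644082 was higher and LOC100644198 lower. Apart from LOC100648450 and LOC100648333, the pairs included LOC100644905 with LOC100645024 and LOC110119952 with LOC100646242. LOC100644905 read 4557 to 5337 (median 4811) at TP1 and 6222, 6238, 7110.2, 6951 and 7139 at TP2, a log2 change of 0.47 (SE 0.09, adjusted p = 0.00735), while LOC100646242 changed by 0.45 (adjusted p = 0.0395). The files do not name the build they used, so this order is that of the RefSeq assembly alone.

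The number of calls depended on single libraries and on the fit. Estimated depth was 43.7 ± 8.34 M reads (SD, n = 6) at TP1 and 35.4 ± 7.35 M reads (SD, n = 5) at TP2 (exact two-sided permutation test, p = 0.117). With depth as a covariate 217 genes were called (142 higher, 75 lower), 152 of them among the 267. Among the genes named by rule, npve, LOC110120329, LOC100644903, LOC100646373, LOC100647803, LOC100648759, LOC100650021 and LOC105667175 lost their calls in that fit. Leaving out 1 control library at a time gave from 140 genes (without TP1 replicate 2) to 653 (without TP2 replicate 3). The median within-group SD of log2 values at TP2 was 0.24 with TP2 replicate 3 and 0.17 without it. At TP1 it was 0.18 with all libraries and 0.15 without TP1 replicate 5. Without TP2 replicate 3, 327 genes were higher and 326 lower. Without TP1 replicates 4 or 6 or TP2 replicate 6 the counts were 150, 173 and 176. Of the 267 genes, 117 were called in each of the 11 fits, 88 higher and 29 lower. A set of 13 genes, all higher, was called in those fits and under all 17 other settings tried, the raised threshold on the size of the change aside. It holds LOC100642296, LOC100648224, LOC100648333, LOC100648450, LOC110119810, LOC100645021, LOC105666040 and LOC100650108, described above, with LOC100645159, LOC100646560, LOC100648753, LOC105666290 and LOC110119936. LOC100646560, for example, read 209 to 381 (median 303) at TP1 and 674, 448, 773, 585 and 579 at TP2, a log2 change of 1.02 (SE 0.16, adjusted p = 0.00178). LOC100648753 read 43.6 to 96.8 (median 83.7) and 154, 189.7, 220.0, 173 and 239.8, a log2 change of 1.31 (SE 0.22, adjusted p = 0.00318). In both genes the old queens were all above the young ones. With the scalings to a common total set aside, 65 genes were called in every fit, 47 higher and 18 lower.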

How the data were processed

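Per the labels, stranded mRNA libraries were made from single tissues of single queens. The deposited signal (normalized read counts, 1 table per tissue) had been scaled by the authors so that the median ratio to each gene's geometric mean was equal in all columns. The submitters' processing notes name kallisto 0.46.1, R 4.0.1 and DESeq2 1.28.1. Neither the genome build nor the filter on genes is given in the sources used here. Low values lay within 0.1 of a whole multiple of 1 step in 88.2% to 93.3% of cases per brain library, which is too few to recover whole reads, so no count test was run.

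The 4 brain groups were fitted together on log2(value + 1) with limma 3.58.1 (R 4.3.3, statmod 1.5.0; trend and robust options) over 10388 genes. P-values were adjusted by Benjamini-Hochberg over all genes, with a threshold of 0.05. Depth was estimated as the total over the value of 1 read; no counting interval per gene was computed. Single values were compared with exact permutation tests (scipy 1.17.1). Replicates are separate queens. Members and lists were chosen with earlier results of these data known.

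Genes were named by rule: the 12 higher and 8 lower called genes of smallest p, the 5 of largest change each way with a group mean of at least 10, called genes with a symbol and list members, LOC100644055, genes called in both treatments, and the 3 each way most opposite in egg removal. Other genes in the text were picked after their values were seen. RefSeq identifiers matched 93.4% of the brain table and gave no product names or sequences used here.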

Additional observations from a re-analysis of the deposited data

Results flagged for a closer look

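In 9 of 92 groups of 5 or 6 libraries checked, 1 library stood apart from the rest by the gap to its nearest neighbour. Chance gives about 1 in 20 such groups if values are normally distributed and groups are independent. The read counts were not transformed and the groups share libraries, so this rate is only a rough guide. In control TP1 replicate 5, LOC100648836 read 2137 (other young queens 2013 to 2041), LOC100644884 read 336 (747 to 774), LOC100643262 read 924 (36.8 to 341), and LOC100644055 read 7139580 (4888 to 2432850). In control TP1 replicate 3, LOC100644903 read 32327 (26354 to 28188). In control TP1 replicate 1, LOC105665972 read 44.7 (13.2 to 24). In control TP2 replicate 3, LOC100645021 read 2841 (other old queens 749 to 1073), LOC100647741 read 2257 (1575 to 1683), and LOC100647803 read 156 (4.44 to 27). Control TP1 replicate 5 and TP2 replicate 3 are also the libraries whose absence lowered the median spread of their groups most. With both left out, a choice made after seeing the data, 812 genes were called, 397 higher and 415 lower, and 241 of them were among the 267.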

How the results depend on the processing

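The count of 267 genes called in control brains moved to 28 (27 higher, 1 lower) when libraries were scaled to the same total, to 37 with LOC100644055 left out of that total, to 112 (86 and 26) when the 2 control groups were fitted alone, to 136 (101 and 35) with weights per group, to 1156 with weights per library, to 640 (355 and 285) with the normalized total as covariate (217 with estimated depth, 152 of them among the 267), to 812 with control TP2 replicate 3 and TP1 replicate 5 both left out, and to 46 at an absolute log2 change of at least 1. Scaling to the same total moved the median log2 change of all genes to 0.09. Scaled to the same total with the libraries led by LOC100644055 left out, 325 genes were called (135 higher, 190 lower), and 127 of them were among the 267. Leave-one-out counts ran from 140 to 653. The scaling to a total without LOC100644055 and the fits that join it with fewer libraries were chosen after seeing the data. The cause of these moves was not tested.

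The 5 genes called in egg removal became 3 with the same total, 0 with 2 groups alone, 46 with weights per library and 1 with only libraries led by LOC100644055, and 4 to 24 in leave-one-out fits. The 0 genes of the difference between treatments became 4 with weights per library, 3 with the total as covariate, 2 with control TP2 replicate 3 and TP1 replicate 5 left out, and 0 to 2 in leave-one-out fits. The share of the 267 genes with the same sign in egg removal, 87.6%, was 75.3% for the 275 genes called without libraries led by LOC100644055, a value that rests on 1 old egg removal queen. The differences in total (-2.94 M) and in the share of LOC100644055 (-3.15 percentage points) ran from -3.91 to -0.339 and from -3.82 to -1.10 in leave-one-out comparisons.

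With the replicate number as a block 284 genes were called (182 higher, 102 lower), 215 of them among the 267. The numbers were not taken as pairing the queens: 2 of 5 control pairs had a correlation of deviations over 0.1, and 1 of 5 libraries correlated best with its own number. No fit of control ageing with only libraries led by LOC100644055 was possible, since it led no TP2 library, and the planned split asked for 2 libraries per group. Without the libraries led by LOC100644055, the joint fit held 4 young and 5 old control queens, and 3 young and 1 old egg removal queens. The lone old queen was assumed to vary like the other groups. This fit, added after seeing the data, called 0 genes in egg removal and 0 for the difference. Of the 36 called genes named by rule 25 kept their calls in each leave-one-out fit, and 29 lost them under the same total. None of these 36 genes reversed its sign, and the signs of the other called genes were not compared across settings. Depth per library is itself an estimate.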
